A study of Mus musculus with 2 samples.

Results

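Blood-rich spots are capture spots of a tumour section in which transcripts of the haemoglobin genes Hbb-bs, Hbb-bt and Hba-a2 took the largest share of all unique molecular identifiers (UMIs, counts of single captured molecules). Among spots with at least 5000 UMIs, the top 5% of each section by summed CPM (UMIs of a gene scaled to 1000000 UMIs of the spot) of these 3 genes were taken. This gave 134 of 2671 spots in the WT section and 120 of 2390 in KO tissue, or 254 of 5061 in both. The spots were thus chosen by their measured haemoglobin values, which are given as a description and were not tested.

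The sections were cut at 10 µm from fixed, paraffin-embedded B16.F10 tumours, a pigmented mouse melanoma line, taken on day 15 from untreated mice aged 8 to 16 weeks, and were profiled with Visium CytAssist, in which probe pairs ligated on the tissue are caught on a grid of barcoded spots. Both mice carried floxed Csnk2b (Csnk2bfl/fl), the regulatory subunit gene of protein kinase CK2. The WT mouse had no Cre, and in the KO mouse (Foxp3-Cre × CK2b-fl/fl) Foxp3-Cre removed the gene in regulatory T cells, so that all other cells of that host, and the injected tumour cells, kept it. There was 1 section per genotype, so no value below has a replicate and no difference between the sections was tested.

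Haemoglobin carries oxygen as a tetramer of alpha and beta chains, each holding a haem group. Mature mouse red cells have no nucleus, and the youngest of them, the reticulocytes, still carry globin RNA and a shrinking remainder of other red-cell RNA such as that of Alas2, the erythroid enzyme that starts haem synthesis. In tissue, red cells lie inside vessels, which are lined by endothelial cells and wrapped by pericytes or smooth muscle, or outside them after bleeding, where macrophages take up the cells and break haem down with Hmox1, haem oxygenase 1. A spot is a small region that can hold several cell types, so a level in a spot does not assign a transcript to a cell, and more cells of a type cannot be told apart from more RNA per cell.

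The 150 bases before the start sites are shown for the 3 genes of the rule and for Alas2, which the rule did not use and which was high in the same spots. They come from RefSeq on GRCm38.p6, and all 4 genes were matched by symbol. Capitals mark 3 motifs known from globin and erythroid promoters, on either strand. They are CACCC, bound by factors of the KLF family, the common promoter box with the letters CCAAT, and the motif of GATA factors, searched here as GATAA. The windows lie at chr7:103827929-103828078 on the minus strand for Hbb-bs, chr7:103813924-103814073 on the minus strand for Hbb-bt, chr11:32296342-32296491 on the plus strand for Hba-a2 and chrX:150547267-150547416 on the plus strand for Alas2.
Hbb-bs: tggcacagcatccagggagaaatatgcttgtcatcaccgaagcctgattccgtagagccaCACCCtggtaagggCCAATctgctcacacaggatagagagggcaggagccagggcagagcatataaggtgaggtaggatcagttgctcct
Hbb-bt: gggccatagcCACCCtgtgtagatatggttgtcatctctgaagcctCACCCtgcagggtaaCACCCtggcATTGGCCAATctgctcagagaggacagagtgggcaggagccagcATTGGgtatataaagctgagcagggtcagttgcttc
Hba-a2: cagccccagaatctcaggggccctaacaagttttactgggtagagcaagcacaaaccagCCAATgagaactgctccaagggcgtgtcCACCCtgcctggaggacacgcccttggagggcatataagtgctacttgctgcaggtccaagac
Alas2: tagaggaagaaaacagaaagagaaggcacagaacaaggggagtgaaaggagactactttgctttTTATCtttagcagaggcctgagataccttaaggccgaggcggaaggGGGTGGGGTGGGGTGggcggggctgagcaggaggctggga
Hbb-bs and Hba-a2 each held the KLF and the CCAAT motif 1 time, Hbb-bt held each of these 3 times, and Alas2 held the KLF motif 3 times and the GATA motif 1 time. Capitals that touch or overlap belong to neighbouring matches. Of 32851 promoter windows of the same length, 37.4% held the KLF motif, 24.5% the CCAAT motif and 13.3% the GATA motif, so a match is a description of the letters and not a site. The windows of both beta-globin genes were 72.4% identical, and that of Hba-a2 was 96.1% identical to that of its near copy Hba-a1, which was not analysed here. Hba-a2 counts may hold molecules of both alpha genes.

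Tissue covered 3066 spots with 88735936 UMIs in WT tissue and 2746 spots with 94422680 UMIs in KO tissue. All 4992 grid positions carry the same barcode in both sections by design, and 2138 barcodes lay under tissue in both. Blood-rich spots were shallower than the rest, with a median of 12830.5 UMIs against 31255 in WT and 14495.5 against 40976 in KO tissue. Ratios against other spots of matched depth are therefore given beside many of the results. Foxp3 had 1 UMI in WT and 2 UMIs in the KO blood-rich spots, too few to describe. Csnk2b reached 293 CPM in blood-rich and 395 CPM in other spots of the WT section, and 327 and 395 CPM in KO tissue.

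Haemoglobin RNA was scarce in the WT section and abundant in KO tissue, so the same rule picked spots at different levels of this RNA. The amount of blood was not measured. A WT blood-rich spot had a median of 3277 CPM of haemoglobin against 78.7 CPM in other spots, and a KO blood-rich spot 25239 against 320 CPM. The least haemoglobin-rich member had 1943 CPM (27 UMIs) in the WT section, and the richest spot left out had 1876 CPM (18 UMIs). In KO tissue these values were 13161 CPM (660 UMIs) and 13119 CPM (368 UMIs). The richest spot gave 3.63% of its UMIs to haemoglobin in the WT section and 28.2% in KO tissue. Of the haemoglobin UMIs in spots with at least 5000 UMIs, blood-rich spots held 43.9% in WT and 52.2% in KO tissue. They held 2.43% and 2.82% of all UMIs of those spots. A threshold shared by both sections, 5843 CPM, would have kept 31 WT spots and 223 KO spots.

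Summed over blood-rich spots, Hbb-bs, an adult beta-globin gene, reached 2914 CPM in WT and 22718 CPM in KO tissue, against 105 and 660 CPM in other spots. Hba-a2, an adult alpha-globin gene, reached 2347 and 13561 CPM, against 65.3 and 285 CPM. Hbb-bt, the other adult beta-globin gene, reached 275 and 3724 CPM, against 6.17 and 117 CPM. These levels follow from the rule. The embryonic and theta genes were near 0 in blood-rich spots: Hbb-bh1, Hba-x and Hbq1a had 0 UMIs in both sections, Hbb-bh2 had 0 and 3 UMIs, and Hbq1b had 0 and 7 UMIs. Hbb-y had no UMI in any spot.

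Within the beta-globin genes, Hbb-bt gave 8.62% of UMIs in WT blood-rich spots (95% exact binomial interval 7.96 to 9.31) and 5.55% in other WT spots (5.10 to 6.03). In the KO section it gave 14.1% (13.8 to 14.3) and 15.1% (14.8 to 15.4). The share of Hba-a2 among all haemoglobin UMIs was higher in blood-rich than in other spots, at 42.4% against 37.0% in WT and 33.9% against 26.8% in KO tissue. Intervals here and below cover counting error only. Each section is 1 mouse, and whether the beta-globin proportion belongs to the genotype, the mouse or the library cannot be told apart.

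**Figure D1:**
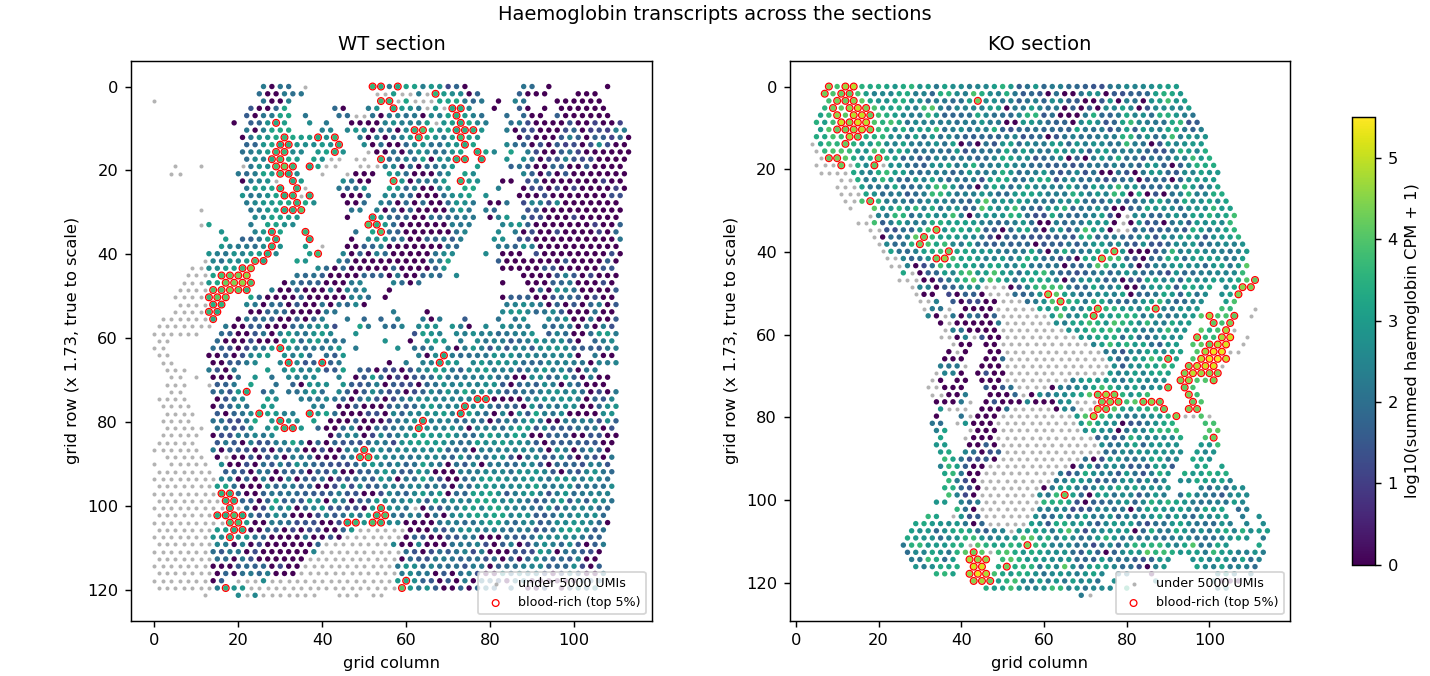
Haemoglobin level of each spot, as log10 of summed CPM plus 1, at its grid row and column in the WT section (left) and the KO section (right), with blood-rich spots ringed in red and spots under 5000 UMIs in grey. Blood-rich spots form patches at the borders of the tissue and scattered small groups inside it, and the KO map is brighter throughout.

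Blood-rich spots lay next to each other and near tissue borders. Of the eligible neighbours of a blood-rich spot, 47.2% were blood-rich in WT and 53.6% in KO tissue, where the rule fixes 5.02% of all eligible spots in each. Only 17 WT and 16 KO blood-rich spots had no blood-rich neighbour. Spots within 2 grid steps of an uncovered position or the frame made up 64.2% of WT blood-rich spots and 41.5% of other spots, and 55.8% and 27.0% in KO tissue. The maps of both sections show these border patches. The spread over the section was uneven, since 1 WT quadrant held 78 of 134 and 1 KO quadrant 59 of 120. The authors' deposited spatial table gave Moran's I, a score of how far neighbouring spots resemble each other, of 0.46 for Hbb-bs, 0.48 for Hba-a2 and 0.26 for Hbb-bt in the WT section, and 0.50, 0.52 and 0.46 in KO tissue.

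Beyond haemoglobin, blood-rich spots carried more RNA of vessel, connective tissue, fat and immune genes and less of melanoma genes. Of 10163 genes with at least 500 UMIs in the WT section, 1055 (10.4%) were at least 2-fold higher in blood-rich spots and 323 (3.18%) at least 2-fold lower. Of 9973 such genes in KO tissue, 914 (9.16%) were higher and 75 (0.752%) lower. A ratio above 1 was seen for 37.4% of WT and 40.4% of KO genes, and the median log2 ratio over all genes was -0.15 and -0.10. Among 9783 genes measured in both, 676 were at least 2-fold higher in both, which is 90.1% of the 750 WT genes and 78.7% of the 859 KO genes. Depth moved with these counts: against other spots of matched depth, 277 WT and 582 KO genes were at least 2-fold higher. Only Myl4, an atrial myosin light chain gene, went 2-fold in opposite directions, at 0.46 times the other spots with 8 UMIs in the WT section and 2.27 times with 52 UMIs in KO tissue.

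Car3, Acta1, Hp, Cxcl14, Lrg1, Svep1, Gmfg, Marco, Clec10a, Plbd1, Cd5l and Ccr2 were the 12 genes with the highest ratio in both sections. Car3, a carbonic anhydrase of fat and slow muscle, was 54.9-fold higher in WT blood-rich spots (50.3 to 59.9) and 28.9-fold higher in KO blood-rich spots (26.1 to 31.8), and at 10.6 and 5.16 with matched depth. Cxcl14, a chemokine of fibroblasts and epithelium, was 7.58-fold and 30.2-fold higher, and 3.20-fold and 8.82-fold with matched depth. Hp, haptoglobin, the plasma protein that binds free haemoglobin, was 13.7-fold (12.2 to 15.4) and 11.7-fold (10.3 to 13.2) higher, and 4.43-fold and 2.06-fold against spots of matched depth. Marco and Cd5l, receptor and secreted genes of tissue macrophages, were 5.89-fold and 5.58-fold higher in WT and 11.6-fold and 7.49-fold in KO tissue. Against spots of matched depth Cd5l was at 0.86 and 1.51, and Marco at 1.38 and 2.81. The other members of the 12 were also closer to 1 with matched depth, down to 1.60 in WT and 1.38 in KO tissue, for Clec10a and Lrg1.

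The lowest ratios in both sections were less deep. Clvs1, a lipid-transfer protein gene, was at 0.30 (0.16 to 0.49) of the other spots in WT and 0.28 (0.16 to 0.47) in KO tissue, with 15 UMIs in each set of blood-rich spots. Cubn, a receptor for endocytosis of proteins, was at 0.23 and 0.32 with 6 and 12 UMIs. Ica1l, Amhr2, Azgp1, Aldh5a1, Dhrs2 and Ift81 were also among the 12 lowest in both. Only 30 genes were at least 2-fold lower in both sections, 9.52% of the WT and 48.4% of the KO genes.

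Alas2 was high in blood-rich spots as well. It reached 66.1 CPM in WT blood-rich spots against 2.27 CPM in other spots, a 29.2-fold difference (23.3 to 36.4), with 336 UMIs in the section's eligible spots, under the 500 set for the counts above. In KO tissue it reached 444 against 12.9 CPM, 34.5-fold (31.7 to 37.4). Alas2 gave 1.19 UMIs per 100 haemoglobin UMIs in WT blood-rich spots (1.0 to 1.40) and 1.07 in KO blood-rich spots (1.0 to 1.13). In other spots it gave 1.29 (1.11 to 1.48) and 1.21 (1.14 to 1.28). The number of Alas2 molecules per haemoglobin molecule therefore differed little between sections whose haemoglobin levels differed several-fold.

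Other erythroid genes were sparse. Tent5c, a poly(A) polymerase gene active in late red-cell precursors, was 7.14-fold higher in WT blood-rich spots (5.26 to 9.53) and 21.7-fold higher in KO blood-rich spots (19.2 to 24.5). Slc4a1, the anion exchanger of the red-cell membrane, had 2 WT and 34 KO UMIs. Its KO ratio was 18.2 (11.7 to 27.9). Of the erythroid list without haemoglobin, 4 of 7 measured genes were above 1 in WT and 11 of 14 in KO tissue. Tmod1 and Rhd were below 1 in both, at 0.60 and 0.78 in WT and 0.89 and 0.62 in KO tissue.

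Endothelial genes were higher in blood-rich spots as a group. All 20 were above 1 in both sections, against 37.4% of all WT and 40.4% of all KO genes, and 19 of 20 were at least 2-fold higher in each. Their median log2 ratio was 2.02 in WT and 1.86 in KO tissue. Summed over the list, blood-rich spots had 2292 CPM against 730 CPM in other WT spots, a ratio of 3.14 (3.05 to 3.23), and 1373 against 561 CPM in KO spots, a ratio of 2.45 (2.37 to 2.53). The ratio was 3.10 and 2.55 against spots of matched depth, and 2.28 and 1.93 against other spots 1 or 2 steps away. Over the 3 of 4 quadrants of each section (split at the median row and column) with at least 10 blood-rich spots it ran from 0.77 to 4.05 in the WT section and from 1.94 to 2.79 in KO tissue.

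Among these genes Pecam1, the junction protein CD31, reached 114 CPM in WT blood-rich spots against 28.1 CPM elsewhere, and 84.8 against 17.9 CPM in KO tissue. Its ratios were 4.07 (3.56 to 4.65) and 4.75 (4.10 to 5.47). Cdh5, VE-cadherin, was 3.58-fold and 3.82-fold higher. Plvap, a protein of the diaphragms of leaky capillaries, was 6.03-fold (5.67 to 6.40) and 3.69-fold (3.37 to 4.03) higher. Vwf, the clotting factor stored in endothelium, was 9.54-fold (7.56 to 11.9) and 3.60-fold (2.48 to 5.08) higher. Eng, the only member under 2-fold, was at 1.14 and 1.01. Its level was above 250 CPM in other spots of both sections, the highest of the list there.

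Mural genes accompanied the endothelium. Of the pericyte and smooth muscle list, 14 of 14 measured genes were above 1 in WT and 13 of 13 in KO tissue, with summed ratios of 3.54 (3.40 to 3.69) and 2.91 (2.73 to 3.09). Acta2, smooth muscle actin, was at 420 CPM in blood-rich and 108 CPM in other WT spots, and at 79.7 and 15.4 CPM in KO spots. Rgs5, a pericyte gene, was 3.56-fold and 3.17-fold higher. Vein genes had a summed ratio of 5.17 (4.81 to 5.56) in WT and 2.40 (2.13 to 2.68) in KO spots. Selp, P-selectin, was 23.7-fold higher in WT spots (14.6 to 38.0) with 30 UMIs, and 9.36-fold with matched depth, and Aplnr, the apelin receptor of veins, was 10.4-fold higher (8.94 to 12). Lrg1 was 15.5-fold higher there (13.8 to 17.5), and 4.39-fold against spots of matched depth. In the KO section Selp was at 10.8, Aplnr at 5.33 and Lrg1 at 7.46, the last at 1.38 with matched depth. Ephb4 and Nr2f2, also of the vein list, were at 1.59 and 1.38 in WT and at 1.58 and 0.86 in KO spots. Over the 3 quadrants the summed vein ratio ran from 0.66 to 4.94 in WT and from 1.07 to 2.95 in KO tissue. Artery genes had summed ratios of 3.69 and 2.93.

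**Figure D2:**
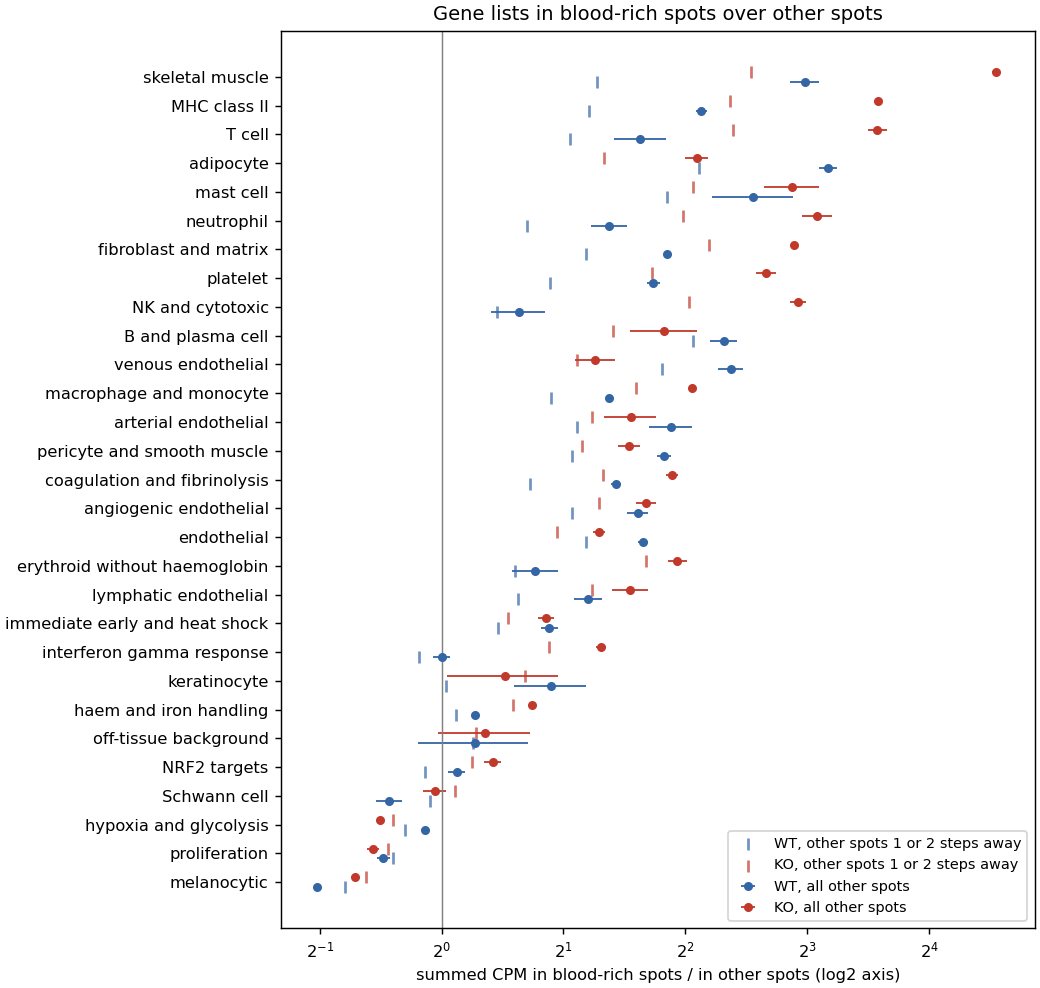
Summed CPM of each gene list in blood-rich spots divided by that in other spots of the same section (points, with 95% counting intervals) or by that in other spots 1 or 2 steps away (ticks), on a log2 axis, in the WT (blue) and KO (red) sections. Melanocytic genes are lowest at 0.49 and 0.61, endothelial genes lie at 3.14 and 2.45, and skeletal muscle reaches 23.4 in KO tissue.

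Still, not every blood-rich spot was rich in endothelium. Summed endothelial CPM was above the section's 90th percentile in 59 WT blood-rich spots, 44.0% (35.5 to 52.9), against 8.20% of other spots, and in 62 KO blood-rich spots, 51.7% (42.4 to 60.9), against 7.80%. Taking the 5% of spots richest in endothelial RNA in place of haemoglobin, 35.8% of WT and 39.2% of KO blood-rich spots were the same spots. No endothelial UMI was found in 5 WT blood-rich spots and 0 KO blood-rich spots.

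Most endothelium-rich members were also rich in muscle, fat or matrix genes. Spots above the 90th percentile of skeletal muscle, adipocyte, or fibroblast and matrix genes formed this class, set by genes and not by position. Its adipocyte list holds Fabp4, which capillary endothelium also expresses, so the class is not fully separate from endothelium. Such spots made up 61.2% of WT blood-rich spots against 24.1% of other spots, and 85.8% against 18.2% in KO tissue. Of the 59 WT endothelium-rich members, 52 were in this class and 7 were not. Of the 62 KO ones, 58 were and 4 were not. A further 45 WT (33.6%) and 13 KO (10.8%) blood-rich spots were rich in neither endothelial genes nor those of this class. These 45 WT spots held 33.3% of the haemoglobin UMIs of WT blood-rich spots.

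Platelet genes gave a mixed picture. The list reached ratios of 3.34 in WT and 6.33 in KO tissue, but Pf4, platelet factor 4, which macrophages also express, gave 2903 of 3121 WT and 1206 of 1376 KO UMIs. Against spots of matched depth Pf4 was at 1.10 and 3.13. Of genes more particular to platelets, Tubb1, Gp9 and Alox12 had 13, 11 and 13 UMIs in WT blood-rich spots and were 9.37-fold (4.70 to 17.3), 5.22-fold (2.51 to 9.82) and 10.5-fold (5.23 to 19.6) higher. In KO blood-rich spots Tubb1 and Gp9 had 0 UMIs, and 85 and 97 UMIs in the other spots. Alox12 had 4.

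Genes that handle haem and iron were higher in part. Above 1 were 13 of 16 measured genes in WT and 12 of 16 in KO tissue, 8 and 9 of these by 2-fold or more. Of all genes, 37.4% and 40.4% were above 1, and 10.4% and 9.16% were at least 2-fold higher. The summed ratio of the list was 1.21 in WT and 1.67 in KO tissue, and 1.09 and 1.37 with matched depth. Hmox1 reached 1164 CPM in WT blood-rich spots against 428 CPM, 2.72-fold (2.61 to 2.84), and 972 against 132 CPM in KO tissue, 7.35-fold (7.03 to 7.68). It was 1.44-fold and 3.35-fold higher with matched depth. Slc40a1, the iron exporter ferroportin, was 3.47-fold (3.02 to 3.97) and 10.9-fold (8.71 to 13.5) higher, and 2.77-fold and 8.61-fold with matched depth. Spic, a transcription factor gene of iron-recycling macrophages, was 4.4-fold (2.76 to 6.72) and 26.9-fold (18.1 to 39.7) higher with 24 and 48 UMIs.

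Cd163, the receptor for haptoglobin-bound haemoglobin, was 6.11-fold and 4.67-fold higher, but at 1.16 and 0.78 with matched depth. Tfrc, the transferrin receptor for iron uptake, was lower, at 0.44 (0.38 to 0.50) and 0.62 (0.57 to 0.67). Fth1, ferritin heavy chain, differed little, at 1.07 and 1.56, and dominated the summed level of the list. Macrophage genes moved with this group: 15 of 15 were above 1 in both sections, with summed ratios of 2.59 and 4.15 and 1.47 and 1.84 with matched depth. The part of the macrophage content in the haem and iron values was not tested.

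Clotting genes were higher too. Of the coagulation and fibrinolysis list, 14 of 15 were above 1 in WT and 13 of 14 in KO tissue, with summed ratios of 2.70 and 3.71 and 1.23 and 1.79 with matched depth. Thbs1, thrombospondin 1, was 2.72-fold and 7.15-fold higher, and 1.30-fold and 3.83-fold with matched depth. F13a1, a clotting factor subunit also made by macrophages, was 3.90-fold and 6.64-fold higher, and at 1.05 and 1.16 with matched depth. Tfpi, an inhibitor of coagulation, was at 0.69 and 0.84.

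The tissue that held the blood was not alike in both sections. In KO tissue each of the 16 genes of skeletal muscle exceeded 2-fold, and their sum was 4210 CPM in blood-rich and 180 CPM in other spots, a ratio of 23.4 (22.9 to 24.0). It was 5.80 against spots 1 or 2 steps away and 4.86 with matched depth. Over 3 quadrants of the KO section it ran from 0.72 to 31.1. The median KO blood-rich spot had 163 CPM of muscle genes, against 21.2 CPM in other spots. Acta1, skeletal muscle actin, reached 1151 against 40.4 CPM, and was 5.73-fold higher with matched depth. Muscle-rich spots were 51.7% of KO blood-rich and 7.80% of other spots. In the WT section the summed ratio was 7.88, but 5 spots held 94.3% of the muscle UMIs of the 134, and interior WT spots had a ratio of 0.85. A muscle UMI was found in 39 of the 134 spots, and 17.2% of them (11.2 to 24.6) were muscle-rich against 9.62% of other WT spots.

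The adipocyte list was higher in blood-rich spots of both sections, but its members differed. WT blood-rich spots had 870 CPM of adipocyte genes against 96.5 CPM, a ratio of 9.02 (8.57 to 9.49), and KO spots 433 against 102 CPM, a ratio of 4.26 (4.0 to 4.54). With matched depth the ratios were 4.57 and 3.47. Cfd, adipsin, was 56.1-fold higher in the WT section (48.1 to 65.5) and Adipoq, adiponectin, 28.5-fold (21.9 to 36.9), against 5.15-fold (3.46 to 7.44) and 3.36-fold (1.19 to 7.73) in KO tissue. With matched depth Cfd was at 10.8 in WT and turned to 0.85 in KO spots, and Adipoq was at 6.32 and 1.23. Pck1 had 63 UMIs in WT and 0 UMIs in KO blood-rich spots. Fabp4, a fatty acid binding protein of fat and capillary endothelium, gave 862 of the 1099 adipocyte UMIs in KO blood-rich spots.

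Connective tissue was higher in both, with all 16 matrix genes above 1 in each. Their summed ratio was 3.61 (3.58 to 3.63) in WT and 7.43 (7.32 to 7.53) in KO tissue, and 1.26 and 2.1 with matched depth. Col1a1 reached 16415 against 4482 CPM in WT and 2806 against 380 CPM in KO tissue. Only 9.70% of WT blood-rich spots were above the section's 90th percentile of matrix genes, against 10.0% of other spots, while 52.5% against 7.75% were in KO tissue. The median blood-rich spot had 51252 CPM of matrix genes against 903 CPM in WT and 11752 against 187 CPM in KO tissue.

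Melanoma genes were lower throughout. None of 12 measured melanocytic genes was above 1 in either section, and the summed ratio was 0.49 in WT and 0.61 in KO tissue. Dct, dopachrome tautomerase, stood at 11560 against 23120 CPM in the first and at 17256 against 29373 CPM in the second. Cell division genes were lower as well, with 0 of 10 above 1 in WT and 1 of 10 in KO tissue. Of all genes, 37.4% and 40.4% were above 1. The summed ratio of the cell division genes was 0.72 and 0.68, but 0.92 and 0.77 with matched depth. Mki67 was at 0.64 and 0.68, and at 0.84 and 0.80 with matched depth.

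Most immune gene lists were higher in blood-rich spots, and most had a larger ratio in KO tissue, but not all. T cell genes had a summed ratio of 3.09 (2.67 to 3.57) in the WT, with 11 of 11 above 1, and of 11.9 (11.3 to 12.6) in KO tissue, with 13 of 13 above 1. With matched depth these were 2.20 and 7.52. Cd3e had 21 WT and 217 KO UMIs in blood-rich spots, at 3.80 and 10.8 times the other spots. MHC class II genes had ratios of 4.38 and 11.9, and 2.01 and 3.90 with matched depth. Neutrophil genes had ratios of 2.59 and 8.45, and 1.01 and 3.32 with matched depth. Ly6g, the defining neutrophil gene, had 0 UMIs in WT and 1 UMI in the KO blood-rich spots, while S100a9 was 6.0-fold and 13.5-fold higher. Interferon gamma response genes had a summed ratio of 1.0 (0.95 to 1.05) in WT and 2.48 (2.40 to 2.55) in KO tissue. B and plasma cell genes went the other way, at 4.98 in WT and 3.55 in KO tissue, and 3.17 and 1.495 with matched depth. In the WT section 5 spots held 68.6% of the UMIs of this list, and its ratio over 3 quadrants ran from 1.02 to 13.9. Igkc and Ighm gave 427 and 254 of its 755 WT UMIs, while Cd79a was at 1.17 in WT and 0.93 in KO tissue. Mast cell genes had ratios of 5.89 in WT and 7.34 in KO tissue, but 3.48 and 2.63 with matched depth. Whether these ratios differ between genotypes was not tested, since each rests on 1 section.

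**Figure D3:**
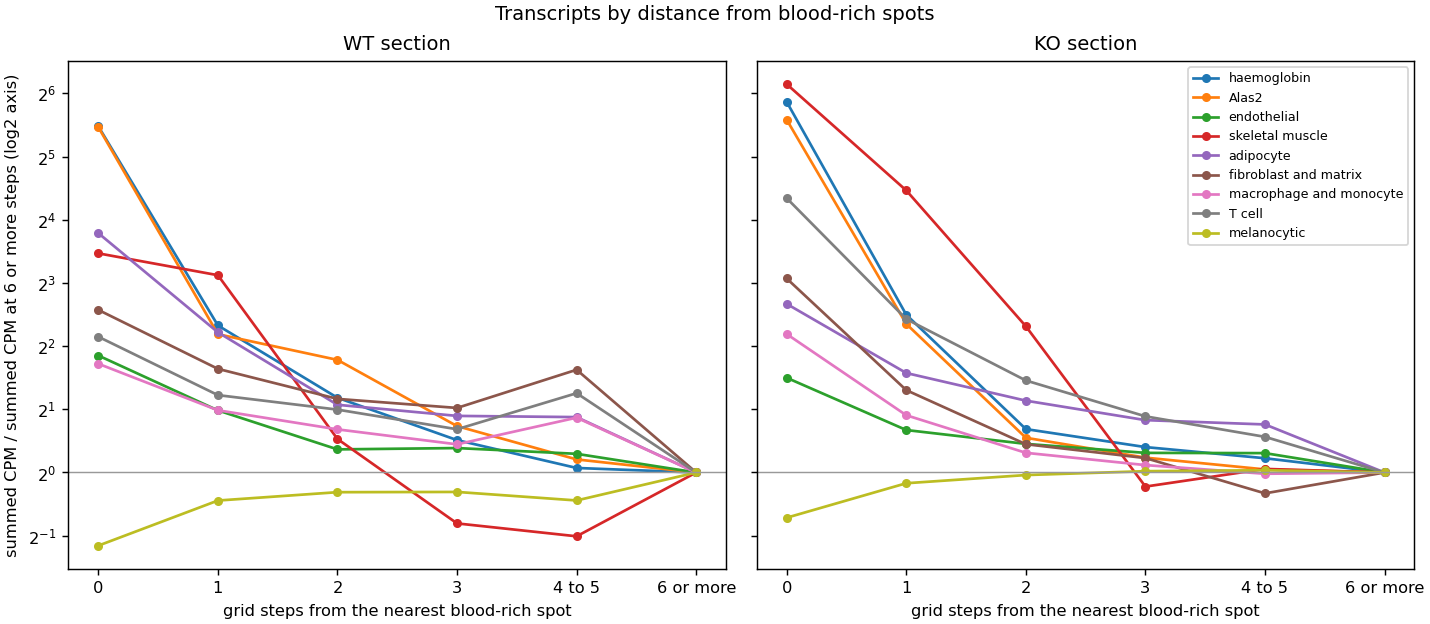
Summed CPM of 8 gene lists and of Alas2 in blood-rich spots (0 steps) and in other spots by grid steps from the nearest blood-rich spot, divided by the value at 6 or more steps, on a log2 axis, in the WT (left) and KO (right) sections. Haemoglobin and Alas2 are both far lower 1 step away, while skeletal muscle in KO tissue declines over 3 steps.

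Haemoglobin was lower with each step away from a blood-rich spot. In the WT section it was 5536 CPM in blood-rich spots, 626 CPM 1 step away, 283 CPM at 2 steps and 125 CPM at 6 or more steps. In the KO section it was 40002, 4017, 1150 and 715 CPM. The level 1 step away is bounded by the rule, which takes the highest spots. Alas2, which the rule did not use, went from 66.1 to 6.83 to 5.15 CPM over the same first steps in the WT section and from 444 to 47.3 to 13.6 CPM in KO tissue. Endothelial genes declined less, from 2292 to 1256 to 819 CPM in WT and from 1373 to 774 to 665 CPM in KO tissue. Muscle genes of the KO section were at 4210, 1312 and 296 CPM over these steps and at 51.0 CPM at 3 steps. The rings of the plot by distance share spots of the same patches and are not independent.

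Blood-rich spots formed 38 groups of touching spots in WT and 29 in KO tissue, of which 5 and 4 had at least 5 spots. These 9 patches differed in the tissue they held. Their ratios were taken against all other spots of the section and were not matched for depth. Median depth of the WT patches ran from 7634.5 UMIs, in the third, to 19847 UMIs in the largest. In KO patches it ran from 10450 to 13551 UMIs. Other spots had medians of 31255 UMIs in WT and 40976 UMIs in KO tissue. Endothelial genes were above the level of other spots in 3 of 5 WT and 3 of 4 KO patches, and below it in the others.

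The largest WT patch, of 29 spots, 25 of them near a border, held 6121 haemoglobin UMIs. Its leading genes over other spots were Cfd at 105-fold (87.2 to 126), Car3 at 97.4-fold and Ighm, an immunoglobulin heavy chain gene, at 32.7-fold. Its endothelial genes were at 4.13 and its adipocyte genes at 16.0 times the other spots. The second WT patch, of 21 spots, was alike, with Car3 at 230-fold (206 to 256), endothelial genes at 8.67, vein genes at 15.5 and adipocyte genes at 27.4. Melanocytic genes were at 0.09 and 0.04 of the other spots in these patches. Matrix genes were at 5.91 and 4.65 there, pericyte and smooth muscle genes at 5.93 and 6.73, and artery genes at 3.54 and 12.1. MHC class II genes were at 9.44 and 7.15. In the second patch 15 of the 21 spots lay near a border. Of the summed vein genes, Lrg1 alone gave 336 of 657 CPM in the first patch and 656 of 1181 CPM in the second.

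The third WT patch, of 14 spots, 0 of them near a border, was of another kind. Marco was its leading gene at 40.9-fold (30.3 to 54.3), followed by Ptx3 and Cd5l at 27.1-fold and 25.4-fold, genes of macrophages and inflammation. Pf4 was at 13.6 (12.5 to 14.7) and Hmox1 at 6.48 (5.78 to 7.24). Its endothelial genes were at 0.28 and its matrix genes at 8.43 times the other spots. Plvap had 3 UMIs there.

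The fourth WT patch, of 9 spots, had among its leading genes Ndufa4l2, a mitochondrial gene induced by low oxygen, at 9.48-fold (8.03 to 11.1), and Lox, which crosslinks collagen, at 8.29-fold. Car9, a carbonic anhydrase gene switched on when oxygen is low, was at 3.76 (3.05 to 4.59). Endothelial genes were at 0.58 there and pericyte and smooth muscle genes at 3.89. The fifth WT patch, of 5 spots 11 steps deep, led with the endothelial genes Ctla2a at 17.3-fold (11.9 to 24.4), Notch4 at 15.3-fold and Gpihbp1 at 15.2-fold. Its endothelial genes were at 6.84, Plvap at 11.5 (9.42 to 13.9), and its matrix genes at 0.47. Hmox1 was at 0.76 (0.51 to 1.07). Of the 9 patches it was the only one with matrix genes below the other spots.

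In KO tissue the 2 largest patches, of 32 and 27 spots, lay in muscle. Skeletal muscle genes were at 52.9 and 56.7 times the other spots, and Acta1 at 76.7-fold (72.1 to 81.6) and 62.9-fold (59.0 to 67.1). Endothelial genes were at 2.97 and 2.74 and T cell genes at 33.0 and 11.4. The richest spot of the first reached the 28.2% of UMIs given above. Hmox1 was at 11.8 and 11.7, and Spic had 24 and 9 UMIs.

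The third KO patch, of 12 spots all near a border, held 10065 haemoglobin UMIs with endothelial genes at 0.55 and muscle genes at 0.08 of the other spots. Its leading genes were Serpinb2, an inhibitor of plasminogen activators, at 49.6-fold (38.1 to 63.5), and Alas2 at 49.1-fold (39.3 to 60.7), then Arg1 at 36.4-fold and Clec4d at 30.1-fold, both genes of myeloid cells. Hmox1 was at 15.5 (13.8 to 17.4). The mast cell proteases Cma1, Tpsb2 and Mcpt4 had 40, 30 and 27 UMIs in these 12 spots, out of 43, 36 and 31 in all 120 KO blood-rich spots. The fourth KO patch, of 9 spots, 0 near a border, led with Sfrp2, a fibroblast gene, at 62.3-fold (47.9 to 80.0), Hp at 51.4-fold and Saa3 at 46.3-fold. Its matrix genes were at 25.9, its endothelial genes at 3.06, its T cell genes at 22.1 and its muscle genes at 0.22.

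**Figure D4:**
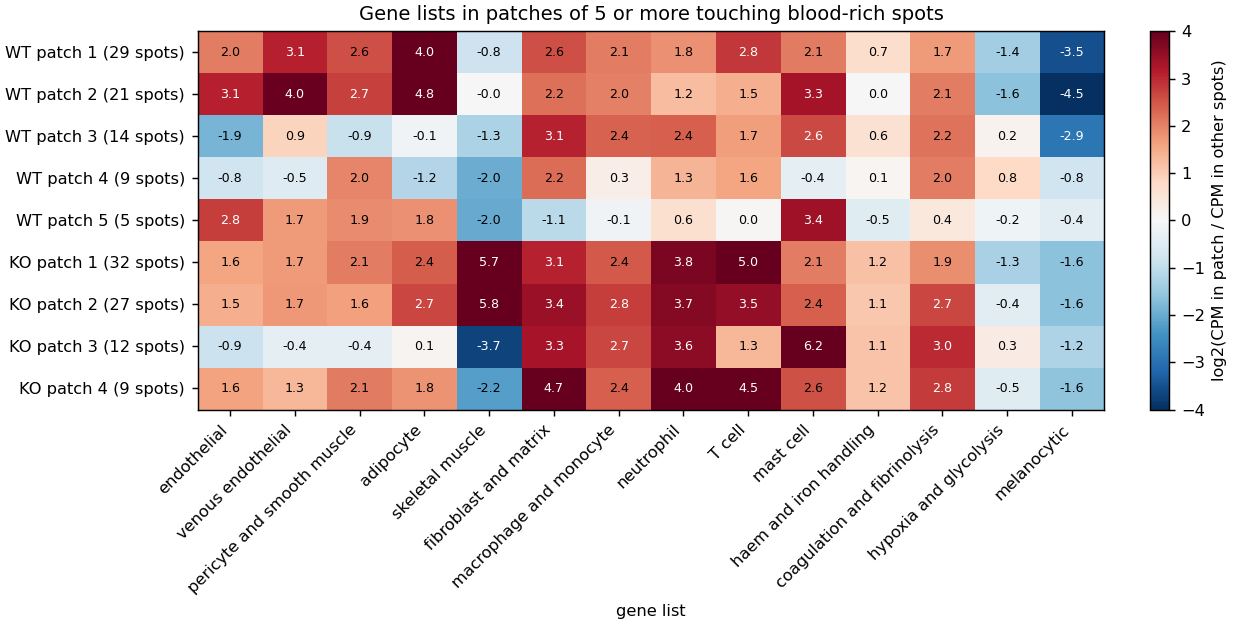
Log2 of summed CPM in each patch of 5 or more touching blood-rich spots over summed CPM in the other spots of the section, for 14 gene lists (columns) and 9 patches (lines, with their number of spots). Red is higher and blue lower, with the value printed in each cell: endothelial genes are lower in WT patches 3 and 4 and KO patch 3, and skeletal muscle is high in KO patches 1 and 2.

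A further comparison took only spots at or above the section's median of melanocytic genes. There, 15 WT blood-rich spots were set against 1321 others and 15 KO blood-rich spots against 1180. Matrix genes were still higher in them, at 4.05 (3.78 to 4.33) and 3.42 (3.09 to 3.77) times the other spots. In each section 14 of 15 spots were above the others' median of these genes. Adipocyte genes, 2 measured in each section, were at 1.71 (1.14 to 2.46) and 3.26 (2.76 to 3.82). Alas2 was high in both, at 23.8 (12.2 to 42.6) with 13 UMIs in WT and 24.1 (20.4 to 28.4) in KO tissue. Of all genes compared within these spots, 45.4% of WT and 49.2% of KO genes were above 1. In the KO section 19 of 20 endothelial genes were above 1, with a summed ratio of 2.29 (2.13 to 2.46), and 14 of 15 blood-rich spots were above the median of the others. The spots ran from 356 through a median of 1111 to 1686 CPM, against a median of 430 CPM. In the WT section 6 of 20 endothelial genes were above 1, with a summed ratio of 0.90 (0.77 to 1.04). The WT spots ran from 74.0 through 461 to 2520 CPM, against a median of 548 CPM, and 6 of 15 were above it.

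In the same spots, genes of hypoxia and glycolysis were compared. All 13 were above 1 in the WT section, with a summed ratio of 1.69 (1.62 to 1.76), and 3 of 13 in KO tissue, with 0.74 (0.71 to 0.76). WT blood-rich spots had from 3528 through 6809 to 14631 CPM, against a median of 4031 CPM in the others, and 12 of 15 were above it. KO blood-rich spots had from 3122 through 5584 to 8527 CPM, against 8250 CPM, and 1 of 15 was above it. Car9 was 5.04-fold higher in the WT (4.31 to 5.85) and at 0.46 (0.38 to 0.55) in KO tissue. Hmox1 was 2.83-fold higher in the WT (2.32 to 3.42) and at 1.13 (0.85 to 1.46) in KO tissue.

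Position and depth moved with this contrast. Only 1 of the 15 WT spots lay inside the tissue, more than 2 steps from a border, and 13 of the 15 KO spots did. Their median depth was 19868 against 36962 UMIs in WT and 48329 against 42157 UMIs in KO tissue. The 15 spots came from 12 patches in WT and 11 in KO tissue. The largest number in 1 patch was 3 in WT and 2 in KO tissue. Without that patch the hypoxia ratio was 1.60 and 0.71. The part of position and depth was not tested.

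**Figure D5:**
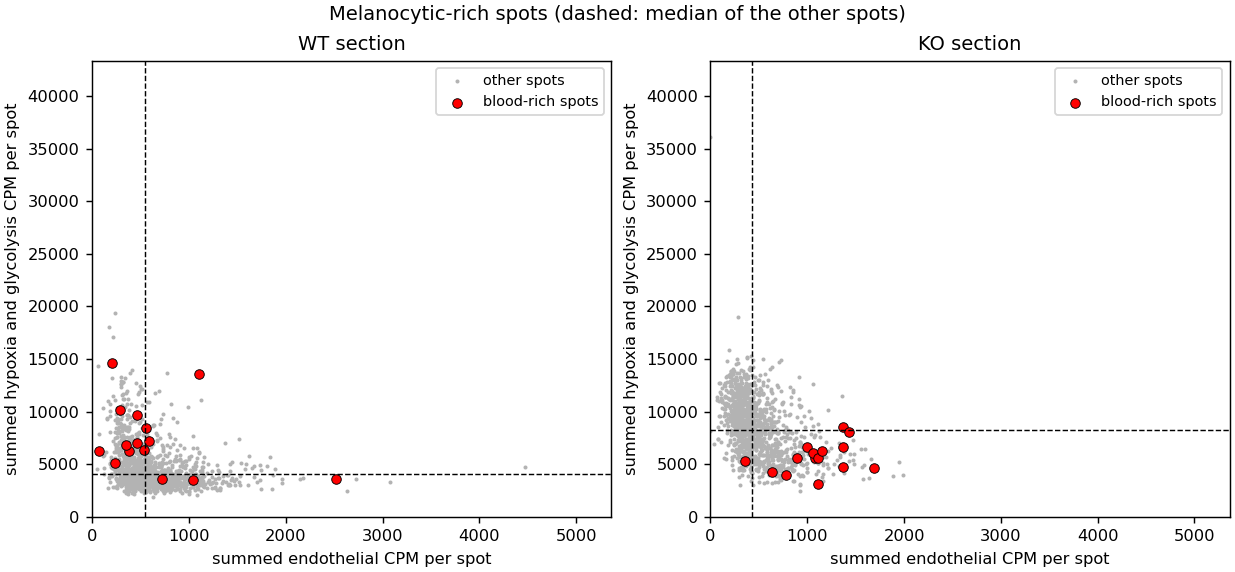
Summed CPM of hypoxia and glycolysis genes against summed CPM of endothelial genes in each spot at or above the section's median of melanocytic genes, for blood-rich spots (red) and other spots (grey), in the WT (left) and KO (right) sections, with dashed lines at the medians of the other spots. Of 15 blood-rich spots, 12 in the WT section lie above the hypoxia median, and 14 in KO tissue lie above the endothelial median.

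Over all blood-rich spots the same list showed less. Its median log2 ratio was 0.35 in WT and -0.38 in KO tissue, while the summed ratio was 0.91 and 0.70, so median and sum differ in sign in the WT section. Aldoa, a glycolysis gene at 0.80 and 0.75, gave 4063 of 8776 WT and 7745 of 13634 KO UMIs of the list, and Pgk1, at 0.75 and 0.60, gave 1735 and 2380. Car9 was at 1.34 (1.21 to 1.49) and 0.49 (0.45 to 0.54), and Adm, adrenomedullin, at 3.06 and 2.43.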

How the data were processed

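The deposited values are UMI counts, whole numbers for 19465 genes and every spot of a section. Per the file headers it was written by Space Ranger 2.1.0. The submitters' processing notes add featureCounts and mm10 but do not say what either was used for. The spatial table deposited by the authors gives Moran's I, a score, per gene. Genotypes come from the labels.

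Haemoglobin CPM used all UMIs of a spot. For other genes, UMIs were summed over blood-rich and over other spots and scaled to the UMIs without 9 haemoglobin genes. Ratios and shares carry exact binomial (Clopper-Pearson) 95% intervals, whose coverage was checked on simulated counts. With 1 section per genotype no test was possible, spots were not used as replicates, and a gene is counted at a ratio of 2 or more. Genes needed 500 UMIs in the section's eligible spots to be counted and 50 to enter 1 of 31 lists. Low-depth spots, 395 WT and 356 KO, were left out. Depth matching weighted other spots to 5 depth bins, the quintiles of blood-rich spots. No doublet caller or deconvolution was run. Python 3.11.15, numpy 2.4.6, scipy 1.17.1 and pandas 2.3.3 were used.

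The blood-rich spots, gene lists and comparisons were chosen with earlier results of these data known. Named are the 12 highest and lowest ratios per section and in both, of each list the 3 deepest and the extreme members, the 5 leading genes per patch with at least 20 UMIs in it, and fixed haemoglobin, vessel and iron genes. Tubb1, Hbb-bh2, Hbq1a, Hbb-y, Rgs5, Adipoq, Mcpt4, Car9 and Myl4 were named after their values were seen. Xist and Lilrb4a were not analysed here, and some other genes that meet the rule are not reported here.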

Additional observations from a re-analysis of the deposited data

Results flagged for a closer look

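Genes of hypoxia and glycolysis had a median log2 ratio over all blood-rich spots of 0.35 in WT and -0.38 in KO tissue. Their summed CPM ratio was below 1 in both, at 0.91 and 0.70, and at 0.85 and 0.64 with matched depth. Among melanocytic-rich spots the summed CPM ratio of this list was 1.69 in WT and 0.74 in KO tissue. With 1 section per genotype, the difference between the sections was not tested.

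Spots below 5000 UMIs, which entered no comparison, held haemoglobin at 2427 CPM in WT and 4136 CPM in KO tissue, against 176 and 1062 CPM in the other spots with at least 5000 UMIs. Of them, 100 of 395 WT and 18 of 356 KO spots had more haemoglobin CPM than the lowest blood-rich spot of their section. Alas2 gave 1.38 UMIs per 100 haemoglobin UMIs in the WT (0.83 to 2.16) and 1.14 in KO tissue (0.78 to 1.62) of these spots.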

How the results depend on the processing

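No paired analysis was possible because each genotype has 1 section and no replicate number pairs them. Depth matching, ranking by haemoglobin UMIs, leaving out the largest patch and restriction to melanocytic-rich spots were chosen after seeing the data. Genes at least 2-fold higher were 1055 in WT and 914 in KO tissue. They were 221 and 364 against spots 1 or 2 steps away, 683 and 576 in interior spots, 1903 and 2072 with a minimum of 100 UMIs per gene, 277 and 582 with matched depth, 189 and 144 in melanocytic-rich spots, and 416 in the WT when ranked by haemoglobin UMIs. Genes at least 2-fold lower, 323 and 75, were least stable. They were 866 and 479 with the top 2.5% of spots, 17 and 5 with the top 10%, 108 and 23 with spots of at least 10000 UMIs, 20 and 2 against spots 1 or 2 steps away, 520 and 212 with 100 UMIs per gene, 1631 and 5 with one threshold for both sections, and 18 and 6 by haemoglobin UMIs. In the WT alone they were 206 after thinning to 5000 UMIs, 91 with matched depth and 151 without the largest patch. In the KO alone they were 113 with CPM over all UMIs, 487 with equal weight per spot and 47 without muscle-rich spots. The cause was not tested. Endothelial genes above 1 were 6 of 20 in melanocytic-rich WT spots, with summed ratios of 0.90 for endothelial, 0.46 for arterial and 0.89 for mural genes and 1.04 for melanocytic genes. WT skeletal muscle genes above 1 were 3 with at least 10000 UMIs, 4 in interior spots, 5 without muscle-rich spots, 2 with one threshold, 1 by haemoglobin UMIs and 3 in melanocytic-rich spots. Their summed ratio was 0.61, 0.85, 0.71, 0.24, 0.37 and 0.76 in that order. Keratinocyte genes of the WT were at 0.49 with matched depth and 0.79 by haemoglobin UMIs, lymphatic genes at 0.80 with matched depth. No other summed ratio of a list above 1.5-fold turned its direction in these alternatives. WT blood-rich spots rest on as few as 11 haemoglobin UMIs, which limits the order of WT spots near the threshold.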
